A study of Mus musculus with 10 samples.

Results

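Angiopoietins are secreted proteins that act on vessels, and the angiopoietin-like proteins share their architecture, a coiled-coil stretch and a fibrinogen-like domain. The 10 genes described here were the angiopoietin genes Angpt1, Angpt2 and Angpt4, the receptor genes Tek, which encodes Tie2, and Tie1, and the angiopoietin-like genes Angptl1, Angptl2, Angptl4, Angptl6 and Angptl7. They were selected by name, by membership of the family, and were 10 of 29268 genes in the count table. Their transcripts were measured by RNA sequencing of whole uterus from 5 HSD17B1TG mice (TG1 to TG5) and 5 wild-type mice (WT1 to WT5), all females aged 4 months. HSD17B1TG mice are heterozygous transgenic mice of the FVB/N strain that express human HSD17B1, the enzyme that converts oestrone to oestradiol, in all tissues from the CMV-enhanced chicken beta-actin promoter. The WT mice carry no transgene. The study describes an absence of cycling in its transgenic line and, in its histology methods, no selection of WT uteri by phase. The WT group may therefore mix phases, and the stage of each sequenced mouse is not given in the sources used here. Effects of the cycle and of the transgene therefore cannot be told apart. The human transgene is not among the mouse genes that were counted.

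In the vasculature, angiopoietin 1 is made by perivascular and stromal cells and activates Tie2 on endothelial cells, which stabilises vessels. Angiopoietin 2 is made by endothelial cells and, depending on context, blocks or activates the same receptor, and is known for its part in vessel remodelling and in lymphatic vessels. Tie1 has no high-affinity angiopoietin ligand and acts with Tie2. The angiopoietin-like proteins do not bind Tie2: some, such as ANGPTL4, inhibit lipoprotein lipase, and others act on integrins or other receptors. The uterus remodels its vessels with the cycle and in pregnancy.

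Of the 10 genes, 1 fell and 0 rose in the HSD17B1TG uterus. The gene that fell was Angptl7, which encodes a secreted angiopoietin-like protein best known from the anterior eye, and its mean level was 58.8-fold higher in WT than in HSD17B1TG mice. The size of this difference depended on WT3, with a log2 fold change of -5.89 in all mice and -4.81 without it, and without TG5 the gene missed the threshold (edgeR adjusted p = 0.0513). A gene was called changed when its adjusted p (edgeR quasi-likelihood test, Benjamini-Hochberg over 16993 genes) was below 0.05, its fold change above 2 and its mean FPKM (fragments scaled to transcript length and library size, a level per length) above 1 in either group. By these criteria 4.24% of all genes tested were called, 2.16% up and 2.08% down, and read against that background 1 of 10 is no result about the family. All 10 genes passed the filter on low counts. The fitted log2 fold change (HSD17B1TG over WT) was above 0 in 3 genes and below 0 in 7, with a median of -0.47, beside 0.00 over all genes tested. Unadjusted p was below 0.05 for 3 of them, Angptl7, Angptl1 and Tek. Over all genes tested it was below 0.05 in 26.1% (14.7% higher and 11.4% lower), against which this count and those of the lists given further on are to be read.

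**Figure D1:**
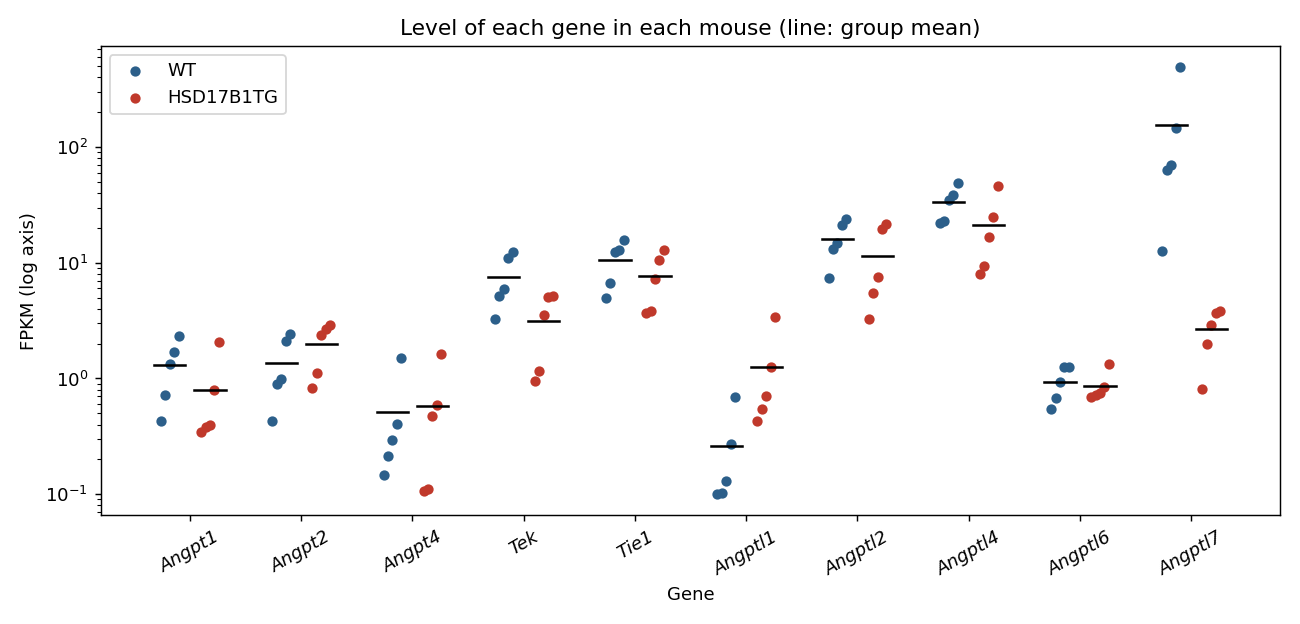
Level of each of the 10 genes in each mouse, as FPKM on a log axis, for WT (blue) and HSD17B1TG (red), 5 mice a group, with the group mean as a line. Only Angptl7 has groups that do not overlap, with HSD17B1TG mice at 0.813 to 3.84 FPKM and WT mice at 12.5 to 489 FPKM, beside 6.69% of all genes tested.

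The proximal promoters of these 3 genes are shown because they are the genes with the lowest p-values. Each sequence is 300 bases from RefSeq (GRCm38.p6), from 250 bases before to 50 bases after the transcript's start, on the strand of the gene. The table of promoters held 7 of the 10 genes (Angpt4, Tek, Tie1, Angptl1, Angptl2, Angptl6 and Angptl7). In Angptl7 (chr4:148500413-148500712, minus strand) and Tek (chr4:94739039-94739338, plus strand) capitals mark an oestrogen response element half-site, GGTCA, which in both lies on the opposite strand and so reads TGACC. In Angptl1 (chr1:156838773-156839072, plus strand) they mark the letters ACANNNTGT, which were searched for as a glucocorticoid and progesterone response element, with no demand on the bases beside them. The Angptl1 gene as counted starts at 156838562, so that this window lies inside it.
Angptl7: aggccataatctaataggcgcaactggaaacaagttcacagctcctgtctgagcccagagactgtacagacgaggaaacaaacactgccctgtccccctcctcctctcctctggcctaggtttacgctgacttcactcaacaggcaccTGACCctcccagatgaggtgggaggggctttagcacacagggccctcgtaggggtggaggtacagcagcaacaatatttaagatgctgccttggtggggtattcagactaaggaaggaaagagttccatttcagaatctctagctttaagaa
Tek: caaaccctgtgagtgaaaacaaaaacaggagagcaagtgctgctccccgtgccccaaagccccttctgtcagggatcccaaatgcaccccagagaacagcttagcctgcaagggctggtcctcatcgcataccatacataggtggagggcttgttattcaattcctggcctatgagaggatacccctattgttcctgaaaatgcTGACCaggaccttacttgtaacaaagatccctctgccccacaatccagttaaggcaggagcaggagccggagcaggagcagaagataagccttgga
Angptl1: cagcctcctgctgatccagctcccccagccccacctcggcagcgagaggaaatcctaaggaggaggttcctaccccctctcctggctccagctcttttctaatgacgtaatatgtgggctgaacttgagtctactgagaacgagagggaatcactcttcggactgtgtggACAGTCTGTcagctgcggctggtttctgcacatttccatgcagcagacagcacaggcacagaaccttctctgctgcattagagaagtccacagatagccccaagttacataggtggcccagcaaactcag
The half-site began 102 bases before the start in Angptl7 and 46 bases before it in Tek. It was found on either strand in 40.5% of 32544 mouse promoters of the same length, so that it is a frequent run of letters. The full oestrogen response element, a palindrome of which each arm is the half-site, was in 0.0707% of all promoters and in none of the 7. The letters ACANNNTGT were in 6.83% of all promoters, and among the 7 only in that of Angptl1, 80 bases before the RefSeq start. The hypoxia response cores ACGTG (19.7% of all promoters) and GCGTG (32.6%), which can overlap, and the TATA box TATAAA (13.6%) were also searched. GCGTG was found at 4 positions in the promoter of Angpt4, which also held a TATAAA, and the other 6 promoters held none of the 3. A match is a description of letters, and binding was not measured.

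The ligands of Tie2 were at low levels in the whole uterus. Angpt1, the activating ligand, was at 2.06, 0.342, 0.378, 0.798 and 0.395 FPKM in TG1 to TG5 and at 0.430, 1.35, 1.70, 0.716 and 2.34 FPKM in WT1 to WT5. TG1 was apart from the other 4 HSD17B1TG mice, all of which were below 1 FPKM, and the groups overlapped. The means were 0.795 ± 0.732 and 1.31 ± 0.764 FPKM (SD, n = 5 each), and the log2 fold change of -0.72 ± 0.61 (SE) did not pass the test (edgeR adjusted p = 0.486). Without TG1 it was -1.45 and still did not pass (edgeR adjusted p = 0.0932).

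Angpt2, the context-dependent ligand, was at 2.36, 1.12, 0.821, 2.87 and 2.66 FPKM in TG1 to TG5 and at 0.430, 0.899, 2.44, 0.997 and 2.09 FPKM in WT1 to WT5. In each group the mice fell on both sides of 2 FPKM, and the ranges overlapped over most of their length. The means were 1.97 ± 0.934 and 1.37 ± 0.852 FPKM (SD, n = 5 each), with a log2 fold change of 0.52 ± 0.51 (SE, edgeR adjusted p = 0.561). Angpt4, another ligand of Tie2, with few counts in this tissue (4 to 73 per mouse), was at 0.106 to 1.63 FPKM in HSD17B1TG mice and at 0.146 to 1.51 FPKM in WT mice. Its highest values were those of TG1 and WT4, and its log2 fold change of 0.19 ± 0.83 (SE, edgeR adjusted p = 0.911) ran from -0.66 to 1.13 when 1 mouse was left out. The sign of its difference therefore depended on single mice.

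The receptor Tek had the lower mean in HSD17B1TG mice. It was at 5.17, 3.51, 0.947, 5.01 and 1.16 FPKM in TG1 to TG5 and at 5.19, 5.91, 10.9, 3.28 and 12.5 FPKM in WT1 to WT5. TG3 and TG5 lay below every WT mouse, and the other 3 HSD17B1TG mice lay between the lowest WT mouse, WT4, and the next. The means were 3.16 ± 2.03 and 7.55 ± 3.94 FPKM (SD, n = 5 each). The log2 fold change was -1.26 ± 0.54 (SE), with an edgeR adjusted p of 0.166, and the exact permutation test on log2(FPKM + 1) gave p = 0.0635, two-sided, unadjusted. The difference in Tek was thus not past the threshold, and it stayed between -1.51 and -1.02 when each mouse was left out in turn.

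Tie1, the partner of Tie2, was at 13, 7.28, 3.70, 10.6 and 3.83 FPKM in TG1 to TG5 and at 12.3, 4.94, 15.6, 6.73 and 12.8 FPKM in WT1 to WT5. The same 2 mice, TG3 and TG5, were the lowest, and the rest of the ranges overlapped. The means were 7.68 ± 4.11 and 10.5 ± 4.48 FPKM (SD, n = 5 each), with a log2 fold change of -0.45 ± 0.42 (SE, edgeR adjusted p = 0.527).

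Both receptors are endothelial, and the endothelial markers varied with them from mouse to mouse. The summed level of 16 endothelial markers, Tek and Tie1 not among them, was 97.4 to 270 FPKM in HSD17B1TG mice and 164 to 340 FPKM in WT mice, lowest in TG5 and TG3. Of the 16 markers 0 were called by edgeR (unadjusted p below 0.05 in 1 higher and 5 lower), 14 were lower, their median log2 fold change was -0.59, and none was at 0 in any mouse. Across the 10 mice, after removal of the group means, the log2 level of Tek had a Pearson r of 0.92 with the endothelial markers and 0.96 with 8 mural cell markers. Tek also had 0.90 with 8 stromal markers and -0.75 with 8 epithelial markers. Tie1 had 0.96 with the endothelial markers. These are descriptions over libraries that share their tissue composition, and in whole tissue fewer cells of a type and less RNA per cell cannot be told apart. Per 1000 FPKM of endothelial markers, Tek was at 8.04 to 24.1 FPKM in HSD17B1TG mice and 19.9 to 43.6 FPKM in WT mice, with 4 of 5 HSD17B1TG mice below every WT mouse. The same quantity for Tie1 was 31.4 to 50.8 and 28.4 to 51.7 FPKM, so that its ranges were nearly alike.

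**Figure D2:**
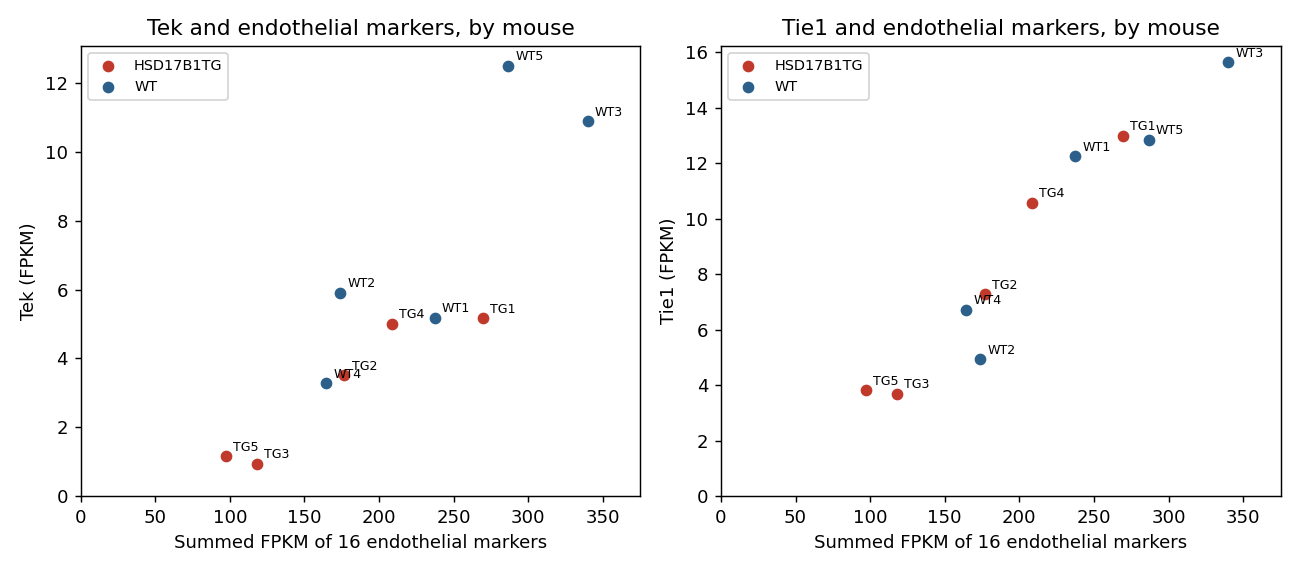
Level of Tek (left) and Tie1 (right) in FPKM against the summed FPKM of 16 endothelial markers, with 1 point a mouse. The mice with the least endothelial marker RNA, TG5 and TG3, had the least of both receptors, and WT3 and WT5 had the most Tek.

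Ratios within a mouse compare the ligands with each other and with their receptor. Angpt2 over Tek was 0.456, 0.319, 0.867, 0.573 and 2.30 in TG1 to TG5 and 0.0829, 0.152, 0.224, 0.304 and 0.167 in WT1 to WT5. Every HSD17B1TG mouse was above every WT mouse, although by a narrow margin between TG2 and WT4. The level of 849 of 16992 genes other than Tek, or 5.00%, had the same separation when divided by Tek, so that the separation is not particular to Angpt2. This ratio was 1 of 7 computed and its groups were not tested. Against the endothelial markers instead of Tek, the groups overlapped, with Angpt2 at 6.35 to 27.3 FPKM per 1000 FPKM of markers in HSD17B1TG mice and 1.81 to 7.29 in WT mice, and 3 of 5 HSD17B1TG mice above every WT mouse. Angpt2 over Angpt1 was 1.14 to 6.74 in HSD17B1TG mice and 0.668 to 1.43 in WT mice, and 4 of 5 HSD17B1TG mice were above every WT mouse, with TG1 the exception. Angpt1 over Tek overlapped between the groups (0.0974 to 0.399 and 0.0828 to 0.228), also with 3 of 5 HSD17B1TG mice above every WT mouse. Tie1 over Tek was 2.07 to 3.90 and 0.835 to 2.36, with 3 of 5 HSD17B1TG mice above every WT mouse.

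**Figure D3:**
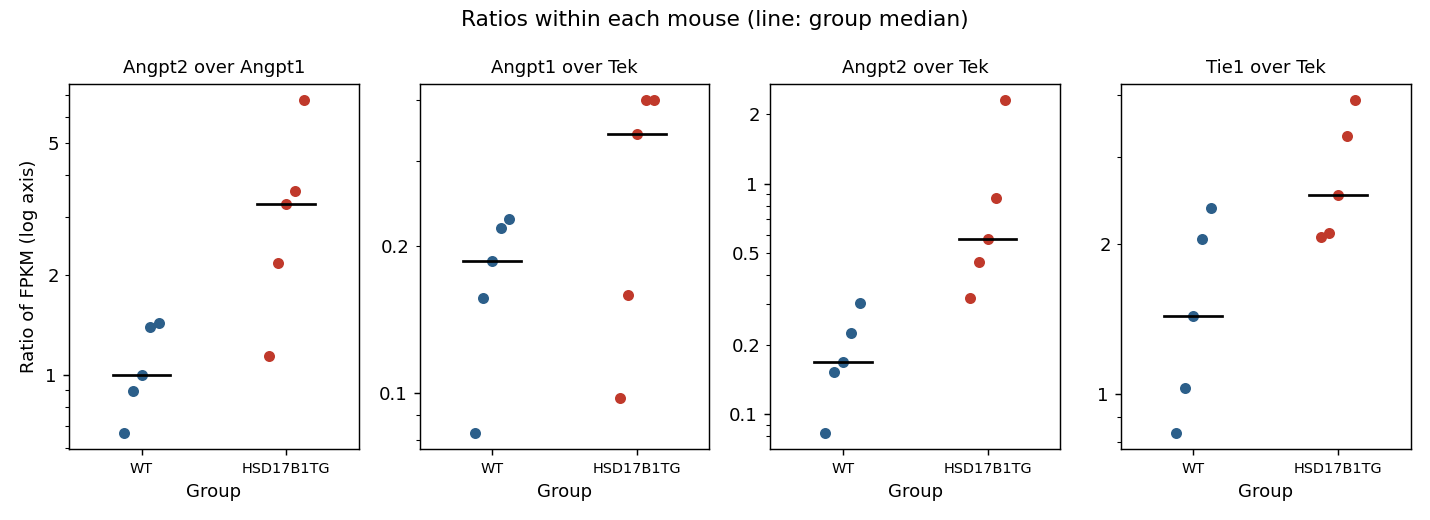
Ratios of FPKM within each mouse on log axes, for WT (blue) and HSD17B1TG (red), with the group median as a line, 5 mice a group. Angpt2 over Tek separates the groups, with HSD17B1TG mice at 0.319 to 2.30 and WT mice at 0.0829 to 0.304. The same separation over Tek was found for 5.00% of all other genes tested.

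Genes that act on or below the Tie receptors were counted beside the 4.24% of all genes tested that edgeR called. Of 16 partners of Tie signalling tested, 0 were called in either direction by edgeR (6 had an unadjusted p below 0.05, 4 higher and 2 lower), 0 by DESeq2 and 2 by voom, and their median log2 fold change was 0.13. Their summed level was 294 to 309 FPKM in HSD17B1TG mice and 212 to 283 FPKM in WT mice, with every HSD17B1TG mouse above every WT mouse, a separation found in either direction for 6.69% of single genes tested. The sum is weighted to abundant general adaptors such as Grb7 (41.3 and 18.1 FPKM) and Grb2 (39.7 and 31.5 FPKM), whereas the means of Svep1, Dok2, Ptprb and Nos3 were lower in HSD17B1TG mice. Ptprb, the endothelial phosphatase that removes phosphate from Tie2, had a log2 fold change of -0.42 ± 0.41 (SE, edgeR adjusted p = 0.565). Svep1, an extracellular matrix protein that binds Tie1, had one of -1.31 ± 0.49 (SE, edgeR adjusted p = 0.124), and Foxo1, the transcription factor that Tie2 signalling restrains, one of 0.49 ± 0.36 (SE, edgeR adjusted p = 0.426). Tnip2, an inhibitor of NF-kappaB that binds Tie2, passed the adjusted p with a fold below 2 (log2 fold change 0.68 ± 0.14, SE, edgeR adjusted p = 0.0287), and it is named for that value.

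Lymphatic vessels depend on angiopoietin 2 and the Tie receptors. Of 6 lymphatic endothelial markers 5 were tested, all 5 were higher in HSD17B1TG mice and 0 were called by edgeR (unadjusted p below 0.05 in 4), with a median log2 fold change of 1.90. Their sum was 11.2 to 47.8 FPKM in HSD17B1TG mice and 2.94 to 23.3 FPKM in WT mice. Prox1, the transcription factor that defines lymphatic endothelium, was at 1.48 ± 0.978 and 0.284 ± 0.239 FPKM (SD, n = 5 each, edgeR adjusted p = 0.0581). Ccl21a and Reln, which are also on the list, were at 0 in at least 1 mouse.

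Among the angiopoietin-like genes Angptl7 had the widest range. It was at 2.91, 3.70, 0.813, 1.98 and 3.84 FPKM in TG1 to TG5, from 33 to 139 counts per mouse. In WT1 to WT5 it was at 62.8, 69.8, 489, 12.5 and 145 FPKM, from 559 to 17020 counts. The lowest WT mouse, WT4, was 3.27-fold above the highest HSD17B1TG mouse, and the WT mice themselves spanned 39.0-fold. The means were 2.65 ± 1.27 and 156 ± 192 FPKM (SD, n = 5 each), and in WT the SD exceeded the mean. The log2 fold change was -5.89 ± 0.96 (SE, edgeR adjusted p = 0.0177). The exact permutation test gave p = 0.00794, two-sided, which is the smallest value that 5 mice against 5 allow. Groups that do not overlap were found for 6.69% of all genes tested.

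Without WT3, which held the most Angptl7, the log2 fold change was -4.81 (edgeR adjusted p = 0.0316). Leaving out TG5 gave an edgeR adjusted p of 0.0513, just past the threshold, at a log2 fold change of -6.06. Each of the other 9 mice could be left out without losing the call, by a narrow margin for TG2 (edgeR adjusted p = 0.0482) and TG4 (edgeR adjusted p = 0.0480). Angptl7 was the highest of the 10 genes in WT mice by its mean and the fifth in HSD17B1TG mice. The gene (ENSMUSG00000028989, chr4:148495183-148500460, GRCm38) lies on the minus strand within Mtor, which is on the plus strand, and shares 0 exon bases with it. Mtor, a kinase of growth signalling, was at 4.72 ± 0.566 and 6.09 ± 0.482 FPKM (SD, n = 5 each, edgeR adjusted p = 0.0756).

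Among the genes whose log2 levels followed Angptl7 most closely over the 10 mice, after removal of the group means, were Lyz1, a lysozyme (r = 0.96), and Steap4, a metalloreductase (r = 0.96). Lyz1 was at 0.126 to 0.305 FPKM in HSD17B1TG mice and 0.997 to 5.20 FPKM in WT mice, and fell, with a log2 fold change of -3.70 (edgeR adjusted p = 0.0153). Steap4 was at 3.30 to 9.02 and 5.48 to 89.8 FPKM and fell, with a log2 fold change of -2.60 (edgeR adjusted p = 0.0460). Reads of Lyz1 could be split with its near-identical copy Lyz2, so that its level is uncertain. Both were measured in the same 10 libraries as Angptl7.

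Angptl1, a secreted inhibitor of angiogenesis, was the highest member by fold. It was at 3.40, 0.708, 0.543, 1.24 and 0.430 FPKM in TG1 to TG5 and at 0.10, 0.686, 0.131, 0.273 and 0.103 FPKM in WT1 to WT5. Of the HSD17B1TG mice 3 lay above every WT mouse, and WT2 lay above the other 2. The means were 1.26 ± 1.23 and 0.259 ± 0.249 FPKM (SD, n = 5 each), from 6 to 180 counts per mouse. The log2 fold change was 2.28 ± 0.74 (SE), with an edgeR adjusted p of 0.0836, and the exact permutation test gave p = 0.0238, two-sided, unadjusted. DESeq2 called it (adjusted p = 0.0141), and the other 7 alternatives in tool, scaling, filter or unit and all 10 fits without 1 mouse did not. Without TG1 the log2 fold change was 1.49 (edgeR adjusted p = 0.151).

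Angptl2, which encodes a secreted protein of inflamed and adipose tissue, was at 19.7, 5.51, 3.26, 21.5 and 7.52 FPKM in TG1 to TG5 and at 13.1, 21.3, 14.9, 7.43 and 23.8 FPKM in WT1 to WT5. TG1 and TG4 lay within the WT range and TG2 and TG3 lay below it, with TG5 near its lower end. The log2 fold change was -0.49 ± 0.51 (SE, edgeR adjusted p = 0.586). Among the members, Tek was nearest to it in pattern (r = 0.79 over 10 mice, after removal of the group means). Tcf21, a transcription factor of mesenchymal cells, was nearest among the protein-coding genes tested (r = 0.98).

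Angptl4, the lipoprotein lipase inhibitor, was the highest of the 10 genes in HSD17B1TG mice by its mean. It was at 46.1, 24.8, 16.8, 9.46 and 7.94 FPKM in TG1 to TG5 and at 34.9, 23, 21.9, 48.9 and 38.7 FPKM in WT1 to WT5. TG3, TG4 and TG5 were below every WT mouse, whereas TG1 was among the highest WT mice. The means were 21.0 ± 15.5 and 33.5 ± 11.3 FPKM (SD, n = 5 each), with a log2 fold change of -0.68 ± 0.45 (SE, edgeR adjusted p = 0.373). Without TG1 it was -1.18 (edgeR adjusted p = 0.0633).

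The 2 mice with the highest Angpt4 and Angptl4, TG1 and WT4, also had the highest summed level of 8 smooth muscle markers in their group, 7350 and 5776 FPKM. The other 8 mice were at 407 to 3086 FPKM. All 8 smooth muscle markers were higher in HSD17B1TG mice, with a median log2 fold change of 0.64, and 0 were called by edgeR or had an unadjusted p below 0.05. Their part in the values of Angpt4 and Angptl4 was not tested. Without both mice, an alternative added after the data were seen, Angptl7 was still the 1 member called, with a log2 fold change of -6.22 (edgeR adjusted p = 0.00392). Angptl4 then had a log2 fold change of -1.01 (edgeR adjusted p = 0.0863) and Angpt4 one of 0.28 (edgeR adjusted p = 0.807). Tek had one of -1.70 (edgeR adjusted p = 0.0639), Angpt1 one of -1.61 (edgeR adjusted p = 0.0611) and Angptl1 one of 1.51 (edgeR adjusted p = 0.174).

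**Figure D4:**
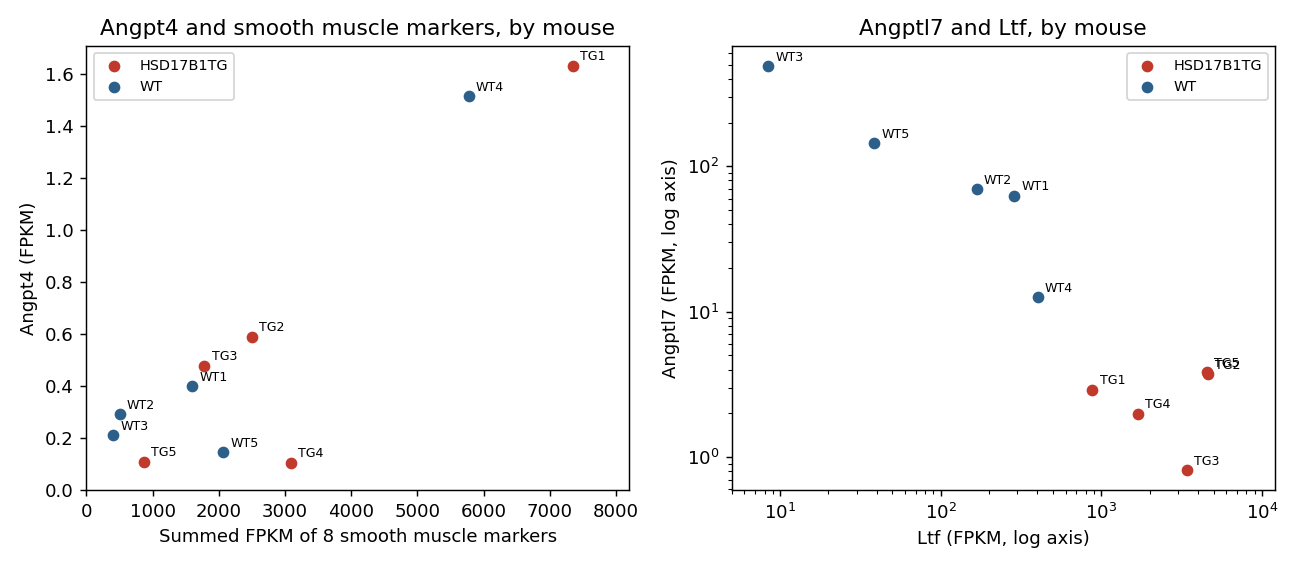
Left, Angpt4 in FPKM against the summed FPKM of 8 smooth muscle markers, with 1 point a mouse. TG1 and WT4 are apart from the rest on both axes. Right, Angptl7 against Ltf, the lactoferrin gene, both in FPKM on log axes, where WT3 has the most Angptl7 (489 FPKM) and the least Ltf (8.43 FPKM).

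Angptl6, a secreted protein known for effects on energy use, was at 0.690 to 1.32 FPKM in HSD17B1TG mice and at 0.549 to 1.27 FPKM in WT mice, from 14 to 49 counts per mouse. The ranges almost coincided, and the log2 fold change was -0.12 ± 0.34 (SE, edgeR adjusted p = 0.854). Its neighbour A230050P20Rik, whose exons overlap its 3′ end, lies on the opposite strand at 15.1 and 16.5 FPKM and shares 265 of the 1582 exon bases of Angptl6. Reads of the pair cannot be told apart if the counting did not use strand, which the sources used here do not state. Angpt2, Angptl1 and Angptl2 also lie within other genes (Mcph1, Ralgps2 and Ralgps1), with 0 shared exon bases. Angptl1 also shares 465 of its 2841 exon bases with Gm37802 and Angpt1 737 of its 5205 with the antisense gene Gm17473, both of which had at most 4 counts in a mouse. Angptl8, a regulator of lipoprotein lipase and a family member outside the 10 genes, was at 1.15 to 2.60 FPKM in HSD17B1TG mice and 0.609 to 8.17 FPKM in WT mice, with the highest value in WT4 (log2 fold change -0.85 ± 0.65, SE, edgeR adjusted p = 0.440).

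In WT mice the order of mean levels was Angptl7, Angptl4, Angptl2, Tie1, Tek, Angpt2, Angpt1, Angptl6, Angpt4 and Angptl1. In HSD17B1TG mice it was Angptl4, Angptl2, Tie1, Tek, Angptl7, Angpt2, Angptl1, Angptl6, Angpt1 and Angpt4. The one pair of neighbours whose ranges did not overlap was Tek and Angpt2 in WT mice. Angptl4 was above Angptl2 in all 5 WT mice, and Tie1 above Tek in all 5 HSD17B1TG mice. The remaining neighbours changed places in at least 1 mouse. Of all pairs of members, Tek and Tie1 (r = 0.85) and Angpt4 and Angptl4 (r = 0.85) had the most similar patterns over the 10 mice after removal of the group means.

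**Figure D5:**
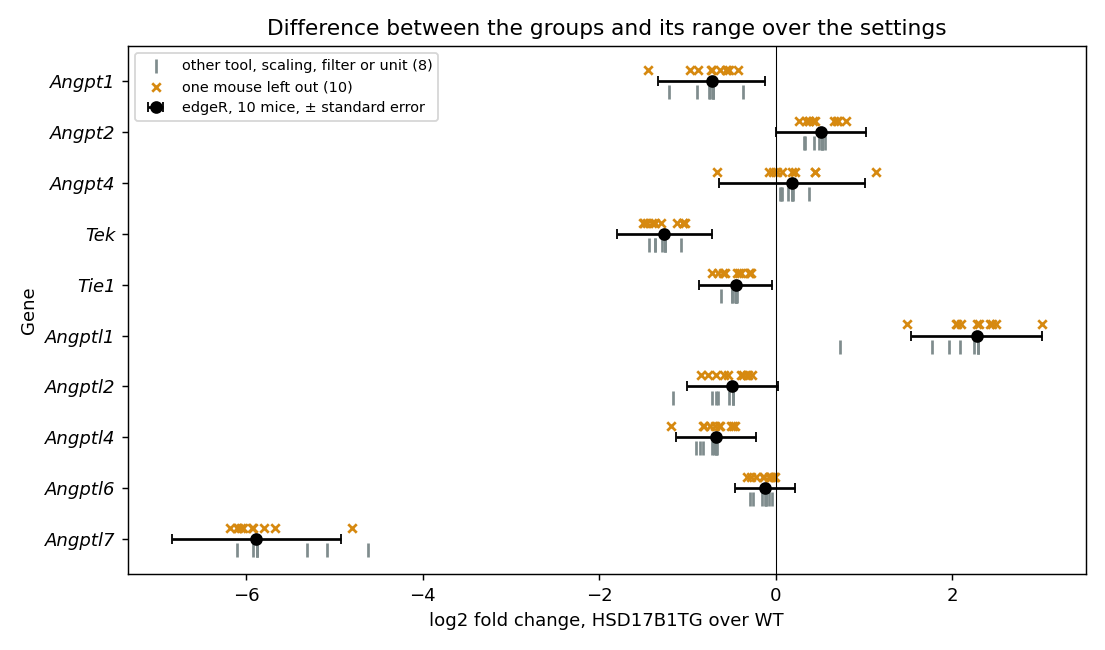
Log2 fold change of each gene (HSD17B1TG over WT) from edgeR with its standard error (black), under 8 other tools, scalings, filters or units (grey) and with each of the 10 mice left out (orange). Angptl7 stays below -4.6 throughout, Angptl1 stays above 0.7, and Angpt4 lies on both sides of 0.

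The counts in the pathways around the angiopoietin-like proteins are to be read beside the 4.24% of all genes tested that edgeR called. Of 5 receptors that these proteins bind, 0 were called by edgeR, DESeq2 or voom (unadjusted edgeR p below 0.05 in 2), and Pirb, a mouse receptor that binds ANGPTL2, had a log2 fold change of 0.06 ± 0.34 (SE, edgeR adjusted p = 0.926). Of 12 tested genes of lipoprotein lipase regulation 0 were called by edgeR (unadjusted p below 0.05 in 1 higher and 2 lower), with a median log2 fold change of 0.14, while DESeq2 called 1 up and 1 down and voom 1 down. Lpl itself was at 9.48 ± 7.05 and 6.36 ± 3.83 FPKM (SD, n = 5 each, edgeR adjusted p = 0.583), and Cd36, a fatty acid transporter, at 3.76 ± 2.66 and 10.3 ± 5.75 FPKM (edgeR adjusted p = 0.137). In the same list Fabp4 was higher (log2 fold change 1.96, edgeR adjusted p = 0.144) and Pcsk5 lower (log2 fold change -1.92, edgeR adjusted p = 0.0699).

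Angptl4 is a textbook target of the PPAR receptors, of hypoxia and of glucocorticoids. Among 16 tested PPAR genes edgeR, DESeq2 and voom each called 1 up and 0 down (unadjusted edgeR p below 0.05 in 3 higher and 1 lower), with a median log2 fold change of -0.04. The gene that edgeR called was the receptor Pparg itself, at 3.16 ± 0.358 and 0.545 ± 0.199 FPKM (SD, n = 5 each), with a log2 fold change of 2.53 ± 0.29 (SE, edgeR adjusted p = 0.00956). Among 22 hypoxia targets 0 were called by edgeR and the median was 0.49. Of these 11 were higher and 2 lower at an unadjusted p below 0.05, DESeq2 called 3 up and 1 down, and voom called 6 up. Egln1, Kdm3a and Ero1l passed the adjusted p with a fold below 2 and are named for that (log2 fold changes 0.84, 0.73 and 0.83), and Vegfa, the main angiogenic growth factor, was at -1.01 ± 0.36 (SE, edgeR adjusted p = 0.108). Among 9 glucocorticoid response genes edgeR called 0 up and 1 down (unadjusted p below 0.05 in 1 higher and 4 lower), as did DESeq2 and voom, with a median of -0.30. Per1, a clock gene, passed the adjusted p with a fold below 2 and is named for that (log2 fold change -0.98, edgeR adjusted p = 0.0342). The gene called down by edgeR was Fkbp5, a chaperone of steroid receptors that progesterone also induces, with a log2 fold change of -1.65 ± 0.28 (SE, edgeR adjusted p = 0.0199).

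Other genes with a fibrinogen-like domain were set beside the family. Of 5 tested, edgeR called 0 up and 1 down (unadjusted p below 0.05 in 2 higher and 1 lower), with a median log2 fold change of -0.10, while DESeq2 and voom each called 1 up and 1 down. Fcna, a ficolin of innate immunity named after its values were seen, was at 13.1 and 2.79 FPKM, with a log2 fold change of 2.22 (edgeR adjusted p = 0.0546). Mfap4, a protein of elastic fibres, was at 45.8 ± 13.1 and 149 ± 83.3 FPKM (SD, n = 5 each, log2 fold change -1.70 ± 0.43, SE, edgeR adjusted p = 0.0445).

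Markers of the cell types that the tissue could hold were called in 3 of 9 lists, stroma, leucocyte and adipocyte. Of 8 stromal markers 4 fell and 0 rose (Pdgfra, Hoxa10, Hoxa11 and Hand2), with a median log2 fold change of -1.59. By sign 7 were lower, Dcn only slightly (-0.10), and 1 was higher, Lum (0.51). The sum of the 8 was 446 to 1573 FPKM in HSD17B1TG mice and 1329 to 1710 FPKM in WT mice. Angpt1, which stromal cells make, had an r of 0.93 with the stromal markers after removal of the group means. With the same markers Tek had 0.90, Angptl2 0.79 and Tie1 0.74, so that a high r is not particular to Angpt1. Of 8 mural cell markers 0 were called by edgeR (unadjusted p below 0.05 in 3) and 7 were lower (median -0.60, sums 32.5 to 80.4 and 62.2 to 139 FPKM). Of 8 epithelial markers 0 were called by edgeR (unadjusted p below 0.05 in 6) and 7 were higher (median 1.22, sums 656 to 3021 and 477 to 1574 FPKM). Of 8 leucocyte markers edgeR called 2 up, Laptm5 (39.6 and 16.2 FPKM) and Cd68 (54.1 and 18.1 FPKM), and 0 down (unadjusted p below 0.05 in 2 higher and 2 lower). These 2 genes are part of the sum of the list, which did not overlap between the groups (92.3 to 161 and 59.9 to 80.6 FPKM, beside 6.69% of single genes tested), while 5 of the 8 were lower and the median was -0.09. Of 6 mesothelial markers 0 were called by edgeR, 2 having an unadjusted p below 0.05 (median 1.4, sums 19.4 to 83.6 and 18.2 to 42.6 FPKM), and of 7 adipocyte markers 1 was tested and rose (Lipe, 1.92), the other 6 being at 0 in at least 1 mouse. The part of any of these in the values of the 10 genes was not tested. Library totals were 16544864 to 19451715 counts in HSD17B1TG mice and 14817228 to 23271988 in WT mice, with 1.94 to 7.57% and 2.58 to 3.37% of counts from mitochondrial genes.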

How the data were processed

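Uterine RNA of 5 HSD17B1TG and 5 WT mice was sequenced as 150 bp pairs. Per the labels the authors aligned reads with HISAT2 2.0.5 and used DESeq2, and the deposited table holds raw counts per gene and the authors' FPKM values (Ensembl 94, GRCm38). The counter and its use of strand are not given in the sources used here. The authors' own comparison columns, fold changes and p-values, were not used. Raw counts of 16993 genes that passed filterByExpr were tested with TMM scaling in edgeR 4.0.16 (R 4.3.3). Single genes were also tested by an exact permutation test on log2(FPKM + 1). Scripts were tested on simulated data. The labels do not say from which litters the mice came, and p-values measure the spread between these 10 samples.

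The 10 genes were given by name, and members and lists (7 pathway and 9 marker lists) were chosen with earlier results of these data known. By rule the named genes were all members, list genes that were called, the best-known gene of each pathway list, and genes among the 3 protein-coding genes nearest in pattern to a member. Other family members, genes that overlap a member and the first markers of a list were also within the rule. Svep1, Dok2, Nos3, Foxo1, Grb2, Grb7, Cd36, Fabp4 and Pcsk5 are named outside this rule. Some items that this rule names are not reported here. Protein comparisons were not run. Overlaps between genes were read from GENCODE M21. Alternatives were DESeq2 1.42.0, 2 other scalings, 2 other filters, voom and limma 3.58.1 on log2(FPKM + 1) and log2(FPKM + 0.1), and each mouse left out.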

Additional observations from a re-analysis of the deposited data

Results flagged for a closer look

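In 5 of 20 groups (10 genes in 2 groups) 1 mouse stood apart from the other 4 by Dixon's test at the 95% level. Chance does this in about 1 in 20 groups of normally distributed values. The test was run on FPKM without a log, all 5 flags were highest values, and the chance rate for skewed values was not tested. TG1 stood above the other HSD17B1TG mice in Angpt1 (2.06 FPKM), Angptl1 (3.40 FPKM) and Angptl6 (1.32 FPKM). WT4 stood above the other WT mice in Angpt4 (1.51 FPKM), and WT3 in Angptl7 (489 FPKM). The 3 flags in TG1 come from 1 library and are not independent of each other.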

How the results depend on the processing

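No paired analysis was possible because the labels give no replicate numbers that pair the mice. The numbers 1 to 5 used here only name the mice in each group, and the numbers that end the sample titles have only 1 in common between the groups. Of the log2 fold changes of the 10 genes under all alternatives, 185 kept their direction and their side of the threshold, 1 gained the call (Angptl1 with DESeq2, members called up 1), 1 lost it (Angptl7 without TG5), and 3 turned sign. These 3 were Angpt4 without TG1 (-0.66), WT3 (-0.03) or WT5 (-0.08), and its range was -0.66 to 1.13. Members called down were 0 to 1 when 1 mouse was left out, and members called up 0 to 0. Over all genes, 367 were called up and 354 down. DESeq2 gave 906 and 666, voom 1083 and 665, the adjusted p alone 568 up, and limma on log2(FPKM + 1) 228 down. Leaving out 1 mouse gave 38 to 888 up and 27 to 666 down, and leaving out TG1 and WT4 together gave 1141 and 879. The cause of these differences was not tested. Scaling by library totals moved the median log2 fold change of all genes from 0.00 to -0.17, and fold changes under it are relative to that shift. Counts per list were within 1.5 times in 229 cases and beyond in 51. Angpt4 and Angptl1 had as few as 4 and 6 counts in a mouse, and the part of depth in their values was not tested.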

Other observations

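Angptl7 and Ltf, the oestrogen-induced lactoferrin gene, were set side by side after their values were seen. In WT mice Ltf was at 287, 167, 8.43, 401 and 38.4 FPKM in WT1 to WT5, so that the order of the WT mice by Ltf was the exact reverse of their order by Angptl7. Of all genes tested 402 (2.37%) had this reverse order, and Angptl7 was the 1 member among them. In HSD17B1TG mice Ltf was at 880 to 4583 FPKM, above every WT mouse, while Angptl7 was below every WT mouse. Within the HSD17B1TG mice the order was not reversed, since TG2 and TG5, with the most Ltf, also had the most Angptl7. With 5 mice in a group no correlation is given.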
